A study of Homo sapiens with 4 samples.

Results

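The comparison described here set CL1-5, an invasive human lung adenocarcinoma line, against CL1-0, the less invasive line from which it was derived, in their control forms only. CL1-5 carried a control shRNA and CL1-0 a control vector. Both were stable, puromycin-selected populations, and each was hybridised to 1 array. These 2 arrays were chosen by their labels from the 4 of the study. The other 2 were CL1-5 cells with an shRNA against G9a and CL1-0 cells expressing HA-tagged G9a. G9a is the histone H3 lysine 9 methyltransferase that EHMT2 encodes. Those 2 arrays, called the second arrays below, served only to show whether a difference between the lines was also present in another population of each line. The control populations differ in line and also in the type of construct they carry, and these cannot be told apart. No group had a replicate, so no test was made and no p-value is given. Each population is a selected pool of a single line, so every value describes these populations.

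CL1-5 was obtained from CL1-0 by repeated selection for cells that pass through a matrix-coated filter, so the lines share an origin and differ in how readily they invade. Invasion by carcinoma cells draws on several programmes. Cells loosen cadherin junctions under transcription factors of the SNAIL, ZEB and TWIST families, which is called epithelial-mesenchymal transition. They also change the integrins and laminins with which they hold the matrix, cut the matrix with metalloproteinases and plasmin, and secrete cytokines. The control comparison asks which of these programmes separated the lines with G9a unaltered.

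The arrays gave 1 MAS5 signal per probe set on a linear scale, for 54675 probe sets that named 19740 genes. The median signal was 11.3 on the CL1-5 control array and 11.7 on the CL1-0 vector array, and 14.9 and 12.3 on the knockdown and HA-G9a arrays. A gene was called measured when its brighter control array reached 12.5, the median of all values, and bright when it reached 84.2, the 75th percentile. Ratios are log2 ratios of CL1-5 over CL1-0, relative to the median measured gene, which lay at -0.01 in the controls and 0.49 in the second arrays. Signals were floored at 3.35, the 25th percentile. Where the dimmer signal was at or below that floor, the ratio is a bound on the size of the difference and is followed by "or beyond". Different probe sets of a gene differed in their ratio with a pooled SD of 0.65 over 6599 genes, and of 0.41 over 3355 bright genes. This measures only the spread within a pair of arrays. EHMT2, the gene altered in the second arrays, read 376 in the CL1-5 control, 28.1 in the knockdown, 419.7 with the vector and 862 with HA-G9a, so the control populations differed little in it (-0.14).

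Of 12925 measured genes, 1630 were at least 2-fold higher in the CL1-5 control (12.6%) and 1704 at least 2-fold lower (13.2%). In either direction 3334 genes, 25.8%, passed 2-fold. A difference was said to hold when the knockdown array over the HA-G9a array, a pair that shares no array with the controls, was past 2-fold in the same direction. That was so for 768 of the higher genes (47.1%) and 879 of the lower genes (51.6%), which are 5.94% and 6.80% of all measured genes. Larger differences held more often. Among genes higher by 2-fold to 4-fold, 38.1% held, and among those higher by 32-fold or more 77.6% held, 66 of 85. For lower genes the shares were 39.4% and 95.0%, 57 of 60. With the line difference taken over all 4 pairings of a CL1-5 with a CL1-0 array, 632 higher and 744 lower genes stayed past 2-fold in every pairing. The second pair went past 2-fold the opposite way for 108 of the higher and 52 of the lower genes. Of 8291 bright genes, 892 were higher (10.8%) and 742 lower (8.95%), which together is 19.7%. Of these 468 (5.64% of bright genes) and 425 (5.13%) held. A difference that did not hold may go with the change in G9a or with a single array, and these cannot be told apart.

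**Figure D1:**
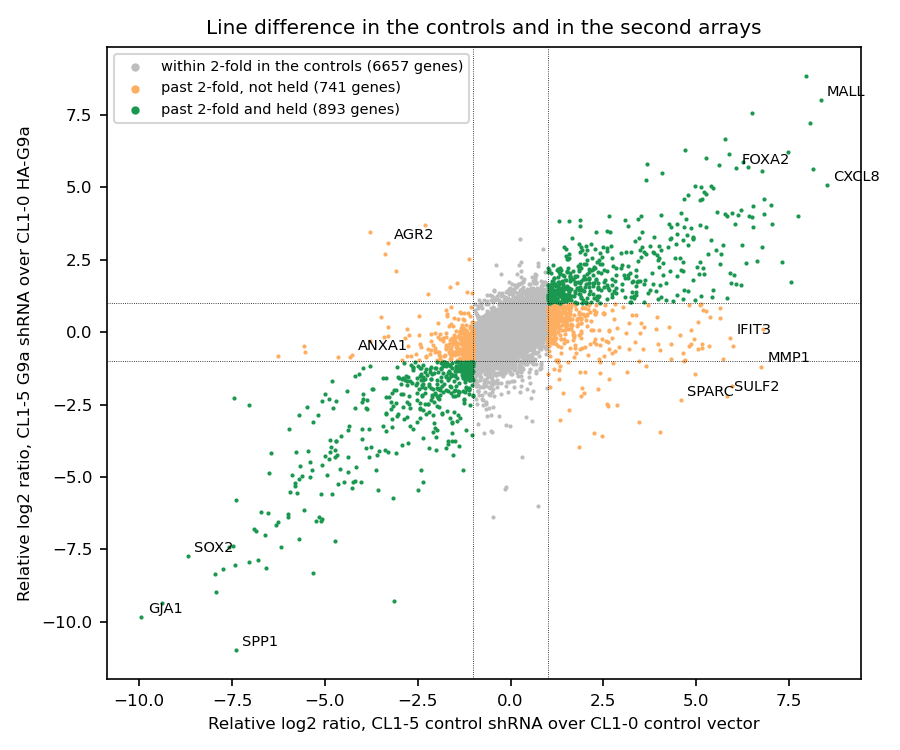
Relative log2 ratio of each of 8291 bright genes in the control arrays (horizontal axis) against the second arrays (vertical axis). Green points, 893 genes, were past 2-fold in the same direction in both pairs; orange points, 741 genes, were past 2-fold in the controls only or opposite; grey points, 6657 genes, lay within 2-fold in the controls.

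The gene with the largest difference towards CL1-5 that held was CXCL8, which encodes the neutrophil chemokine interleukin-8. It read 1619.99 and 1714 in the CL1-5 control and knockdown arrays and 4.46 and 36.4 in the CL1-0 vector and HA-G9a arrays. Both CL1-5 arrays lay far above both CL1-0 arrays, and the relative log2 ratio was 8.52 in the controls and 5.07 in the second arrays. MALL, a proteolipid of the MAL family found in lipid rafts, read 1088 and 1215 in CL1-5 and 1.88 and 2.41 in CL1-0, so it was below the floor in both CL1-0 populations. PAEP, which encodes the secreted lipocalin glycodelin, had signals of 941 and 234 against 2.53 and 0.764. THBD, the thrombomodulin that turns thrombin into an anticoagulant, read 1139.8 and 1321 against 4.34 and 6.36. PLEK2, a pleckstrin that binds phosphoinositides and acts on the actin cytoskeleton, read 824 and 2180.3 against 2.93 and 2.39. For these 5 genes no CL1-0 signal came near a CL1-5 signal. They are the 5 largest held differences, so this follows largely from how they were chosen.

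Several of the other genes with the largest held differences act at the cell surface. ANPEP, the membrane aminopeptidase CD13, read 1197 and 409 in CL1-5 and 5.61 and 17.95 in CL1-0. NT5E, the 5′-nucleotidase CD73 that makes adenosine, read 988 and 443 against 9.13 and 41.4. PLAU, the urokinase that activates plasminogen, read 2258 and 2725 against 17.2 and 145. GNA15 encodes a G protein alpha subunit and read 587 and 861 against 1.79 and 8.27. ARHGAP29 read 2721 and 2492 against 21.4 and 85.2. The remaining ones were C19orf33, AFAP1L1, which encodes an actin-associated protein of invadosomes, DUSP4, a phosphatase that switches off MAP kinases, and IGFBP4, which binds insulin-like growth factors. Their ratios in the controls were 7.54 or beyond, 7.31, 6.82 and 6.77, and in the second arrays 1.75, 2.44, 4.61 and 5.56. In all 14 of these genes both CL1-5 signals exceeded both CL1-0 signals, which follows largely from choosing them among held differences. Of all called genes, 38.8% of the higher and 43.7% of the lower ones stayed past 2-fold in every pairing.

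In the opposite direction the largest difference was that of GJA1, the gap junction protein connexin 43. It read 3338 and 3132 in the CL1-0 vector and HA-G9a arrays and 0.276 and 4.81 in the CL1-5 control and knockdown arrays, so a bright gene of CL1-0 was near or below the floor in both CL1-5 populations. The relative log2 ratio was -9.94 or beyond in the controls and -9.83 in the second arrays. ALDH1A1, which oxidises retinaldehyde to retinoic acid and is used as a stem cell marker, read 2280.5 and 1570.1 in CL1-0 and 0.494 and 0.708 in CL1-5. SOX2, a transcription factor of foregut and airway progenitors, read 1618 and 1096 against 3.88 and 7.21. SPP1, the secreted matrix protein osteopontin, read 5892 and 4857 against 34.8 and 3.18. These 4 genes showed no overlap between the lines, and they too were chosen among held differences.

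Neuronal genes were among the CL1-0 genes with the largest differences. MAP2, a microtubule-associated protein of dendrites, read 1267 and 778 in CL1-0 and 5.05 and 2.64 in CL1-5. NEFH, the heavy neurofilament, read 831 and 1314 against 0.755 and 3.63, and NTS, the peptide neurotensin, 565 and 132 against 2.94 and 1.79. DIRAS2, a Ras-like GTPase of brain, read 392 and 278 against 0.261 and 0.932. The list of neuronal and secretory vesicle genes had 21 measured members, of which 8 were lower in the CL1-5 control (38.1%, against 13.2% of all measured genes), 5 of them held, and 2 were higher, both held. The exception among its largest differences was GAL, the peptide galanin, which read 179 and 43.4 in CL1-5 and 3.93 and 4.33 in CL1-0. NEFL, the light neurofilament, was lower in CL1-5 but not absent, at 287 and 1090.3 against 4558 and 3433.

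The rest included regulators of transcription. NR2F1, an orphan nuclear receptor, read 1590.02 and 1192 in CL1-0 and 7.36 and 5.73 in CL1-5. ID4, which blocks basic helix-loop-helix factors, read 2161 and 1631 against 12.2 and 472. The 2 CL1-5 arrays lay far apart in ID4, and the second-array ratio, -2.27, was much smaller than the -7.45 of the controls. SKIDA1 and ARID5B, a DNA-binding protein with an ARID domain, had control ratios of -7.58 and -7.04 and second-array ratios of -7.42 or beyond and -7.94. HORMAD1, a meiotic chromosome protein that some tumours express, read 410.2 and 267 against 0.344 and 0.632. The last of the 15 were COL5A2, a fibrillar collagen chain, at -7.41 or beyond and -8.03, and F2RL2, a thrombin receptor, at -7.06 or beyond and -2.50.

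**Figure D2:**
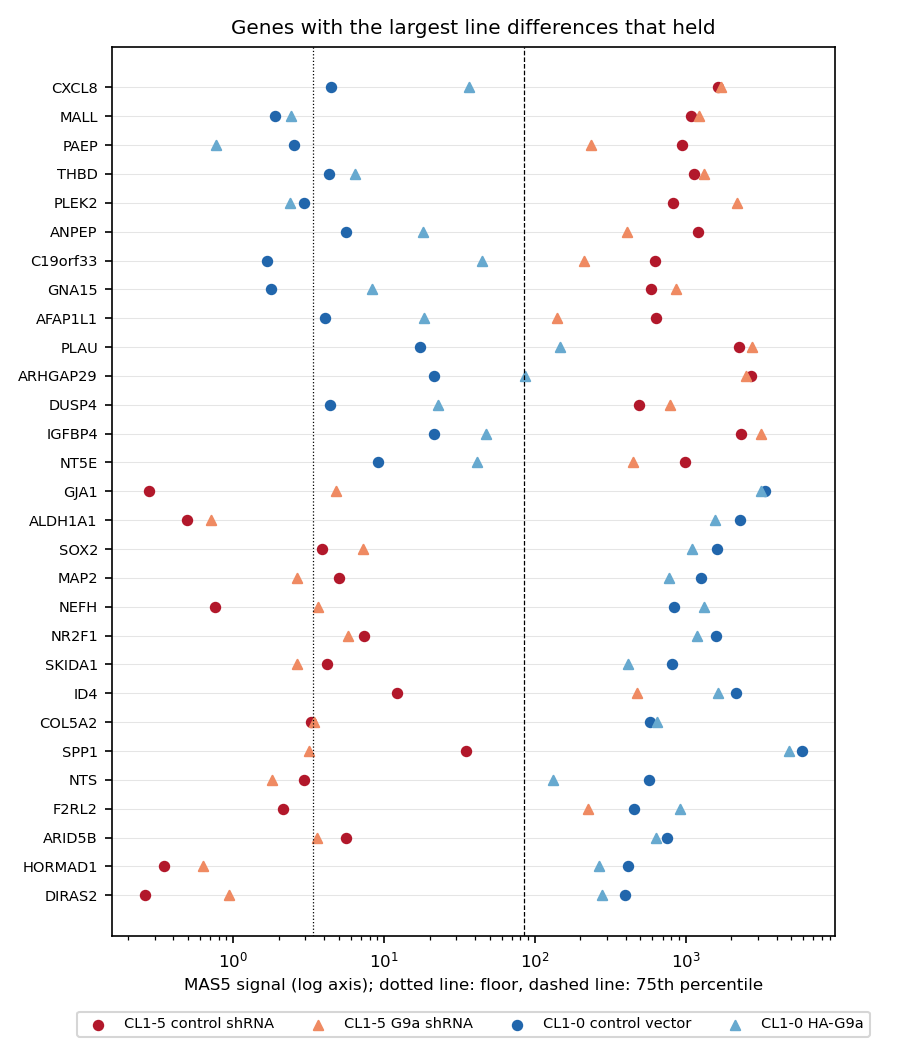
MAS5 signal (log axis) of 14 of the 15 bright genes with the largest held difference towards CL1-5 (upper rows, CXCL8 to NT5E) and of the 15 towards CL1-0 (lower rows, GJA1 to DIRAS2) on each of the 4 arrays. Red and orange symbols are the CL1-5 arrays and blue symbols the CL1-0 arrays, circles the controls and triangles the second arrays. In each row the colours of the lines do not cross, which follows largely from choosing held differences.

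The bright genes with the largest differences that did not hold each had 1 array apart from the other 3. The 6 largest towards CL1-5 were ITGB3, MMP1, PTX3, IFIT3 and SULF2, which are described with their groups, and ARHGDIB. ARHGDIB read 298 in the CL1-5 control and 0.949 in the knockdown, and 4.77 and 1.21 in CL1-0. Towards CL1-0 they were ARHGAP18, C4orf54, TOX, FREM2, GULP1 and ANXA1. ARHGAP18 read 8.75 in the CL1-5 control, 488 in the knockdown and 675 and 609 in CL1-0. TOX, a nuclear HMG-box protein, read 1.53, 63.9 and 158 and 73.5 in the same order, FREM2, an extracellular matrix protein, 1.87, 30.4 and 85.7 and 39.2, and GULP1, an engulfment adaptor, 44.4, 551 and 903 and 720.04. In ARHGDIB, ARHGAP18, TOX, FREM2 and GULP1 the CL1-5 control was the array apart. In C4orf54 it was the CL1-0 vector array, since it read 0.126, 0.881 and 160.5 and 0.6802.

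Genes that differed most between the lines had CG-poor promoters more often than genes that did not differ. RefSeq promoter windows of GRCh38.p14, from 250 bases before to 50 bases after the gene start, were at hand for 10459 measured genes. The ratio of observed to expected CG was at least 0.6, a usual mark of a CpG island, in 81.5% of them and in 91.1% of the 5711 bright genes within 2-fold. It was so in 64.3% of 154 bright genes at least 8-fold higher in CL1-5 and in 52.5% of 122 at least 8-fold lower. At or above 84.2 in both arrays of a line and below 12.5 in both arrays of the other were 33 CL1-5 genes and 50 CL1-0 genes. A promoter window was at hand for 22 and 44 of them, and the share was 63.6% and 47.7% of these. The promoters printed here show both kinds for genes of that sort. MALL (chr2:110118090-110118389, minus strand) and GJA1 (chr6:121435396-121435695, plus strand) are CG-poor. PLEK2 (chr14:67412116-67412415, minus strand) and FGF2 (chr4:122826581-122826880, plus strand), a growth factor gene bright in CL1-0 and below the floor in CL1-5, are CG-rich. CG dinucleotides are in capitals, and number 0 in MALL, 3 in GJA1, 30 in PLEK2 and 41 in FGF2.
MALL: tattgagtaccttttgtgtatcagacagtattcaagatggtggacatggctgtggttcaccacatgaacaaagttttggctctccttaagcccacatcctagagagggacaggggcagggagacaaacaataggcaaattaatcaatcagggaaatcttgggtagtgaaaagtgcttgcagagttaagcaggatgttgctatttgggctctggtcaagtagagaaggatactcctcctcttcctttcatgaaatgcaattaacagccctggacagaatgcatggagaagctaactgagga
GJA1: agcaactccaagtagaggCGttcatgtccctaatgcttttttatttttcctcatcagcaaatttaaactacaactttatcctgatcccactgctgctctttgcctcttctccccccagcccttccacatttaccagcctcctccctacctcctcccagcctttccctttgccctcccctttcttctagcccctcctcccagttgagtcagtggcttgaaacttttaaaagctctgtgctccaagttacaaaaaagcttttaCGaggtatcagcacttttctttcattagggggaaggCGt
PLEK2: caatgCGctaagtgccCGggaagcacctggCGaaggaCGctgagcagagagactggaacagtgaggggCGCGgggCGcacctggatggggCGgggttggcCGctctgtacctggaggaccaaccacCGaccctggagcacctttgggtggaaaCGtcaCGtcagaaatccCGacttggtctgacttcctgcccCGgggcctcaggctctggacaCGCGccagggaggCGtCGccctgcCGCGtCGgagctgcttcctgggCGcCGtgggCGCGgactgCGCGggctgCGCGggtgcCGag
FGF2: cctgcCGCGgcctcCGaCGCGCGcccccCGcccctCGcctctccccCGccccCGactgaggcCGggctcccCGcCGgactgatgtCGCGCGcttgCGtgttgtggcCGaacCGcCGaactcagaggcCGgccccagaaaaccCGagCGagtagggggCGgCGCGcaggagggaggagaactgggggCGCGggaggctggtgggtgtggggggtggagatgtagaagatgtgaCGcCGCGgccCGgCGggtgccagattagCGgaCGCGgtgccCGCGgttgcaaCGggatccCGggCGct
MALL and PLEK2 were thus on in the same line with opposite promoter types, as were GJA1 and FGF2. DNA methylation was not measured here.

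A motif of the AP-1 factors, the FOS and JUN dimers that act downstream of MAP kinases, was also counted, after the values had been seen. The searched heptamer was TGACTCA, or TGAGTCA, which is the same site on the other strand. It stood in 3.07% of all 10459 promoter windows and in 6.27% of those of bright genes past 2-fold higher in CL1-5, 43 of 686. It stood in 2.18% of those of bright genes past 2-fold lower, 13 of 596, and in 2.24% of those within 2-fold. At 8-fold the shares were 9.74% for higher and 4.92% for lower genes. A TATAAA hexamer on either strand was found in 9.74% of the windows 8-fold higher, 14.8% of those 8-fold lower and 4.13% of those within 2-fold. A match is a run of letters and was not tested for binding. The windows of CXCL8 (chr4:73740319-73740618, plus strand), PAEP (chr9:135561506-135561805, plus strand) and F3 (chr1:94541710-94542009, minus strand), 3 genes high in CL1-5, carry the heptamer, in capitals, starting at base 114, 156 and 41 of the window.
CXCL8: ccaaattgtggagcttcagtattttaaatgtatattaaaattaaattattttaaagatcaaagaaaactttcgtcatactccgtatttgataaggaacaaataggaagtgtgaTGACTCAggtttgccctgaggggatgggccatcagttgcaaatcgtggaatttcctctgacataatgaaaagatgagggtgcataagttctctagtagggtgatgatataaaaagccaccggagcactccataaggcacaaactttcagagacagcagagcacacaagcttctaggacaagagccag
PAEP: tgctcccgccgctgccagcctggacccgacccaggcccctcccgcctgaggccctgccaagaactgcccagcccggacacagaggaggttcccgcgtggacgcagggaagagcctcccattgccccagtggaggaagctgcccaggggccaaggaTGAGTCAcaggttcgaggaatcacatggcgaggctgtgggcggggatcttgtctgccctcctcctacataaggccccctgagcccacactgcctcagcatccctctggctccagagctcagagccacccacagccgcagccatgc
F3: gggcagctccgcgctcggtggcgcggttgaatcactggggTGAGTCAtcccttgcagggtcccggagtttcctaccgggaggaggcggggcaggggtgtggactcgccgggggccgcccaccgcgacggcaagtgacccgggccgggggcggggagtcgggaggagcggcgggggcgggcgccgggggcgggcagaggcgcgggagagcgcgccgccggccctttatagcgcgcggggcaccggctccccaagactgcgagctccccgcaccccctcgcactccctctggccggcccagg
GJA1, the gene with the largest difference towards CL1-0, holds the heptamer as well.

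More of the AP-1 and MAP kinase feedback genes were higher in CL1-5 than lower. Of 25 measured members, 13 were higher in the CL1-5 control (12.6% of all measured genes were), 9 of them held, and 4 were lower, 2 of them held. The median ratio was 1.30 in the controls and 0.73 in the second arrays. FOSL1, the FOS-family member FRA-1, read 1518 and 1307 in CL1-5 and 60.8 and 214 in CL1-0. JUN read 1389 and 797 against 97.2 and 84.8. The phosphatases DUSP4 and DUSP5, which MAP kinase signalling switches on and which switch it off again, read 489 and 779 against 4.39 and 22.8 and 1658 and 1823 against 30.9 and 76.6. IER3, an immediate early gene, read 2682 and 4562 against 191 and 478. In each of these 5 genes the lines did not overlap. Of the 13 higher members 8 stayed past 2-fold in every pairing, against 38.8% of all higher genes.

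Receptors and ligands of growth factor signalling differed gene by gene. EGFR, the epidermal growth factor receptor, read 842 and 1635 in CL1-5 and 73.2 and 151 in CL1-0, and AXL, a receptor tyrosine kinase that has been studied as an invasion gene, read 584 and 850.3 against 66.4 and 153. CDCP1, a transmembrane substrate of SRC kinases, read 1048 and 1117 against 13.8 and 13.6. The fibroblast growth factors went opposite ways. FGF1 read 274 and 37.9 in CL1-5 against 3.68 and 0.654, whereas FGF2 read 2.09 and 2.14 in CL1-5 against 378 and 554 in CL1-0. FGFR3, a receptor for both, read 14.5 and 32.8 against 297 and 221. The list of growth factor receptors and ligands other than the EGF family had 29 measured members, of which 7 were higher, 4 of them held, and 10 lower, all 10 held. In the EGF family 2 of 7 were higher, 1 held, and 3 lower, 1 held. ERBB3, NRG1 and HBEGF had control ratios of -3.89 or beyond, -2.83 and 2.30 but second-array ratios of 0.15, 0.33 and -0.41, so the lines did not stay apart in them.

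Several of the lung lineage factors separated the lines, in different combinations. FOXA2, a forkhead factor of foregut endoderm, read 222 and 241 in CL1-5 and 0.367 and 0.577 in CL1-0, where it was at the floor. Its relative FOXA1 was the reverse, at 9.199 and 12.5 in CL1-5 and 192 and 178 in CL1-0. SOX9, a factor of the distal lung bud, read 958 and 578 in CL1-5 and 30.8 and 191 in CL1-0, while SOX2, of the proximal airway, was the CL1-0 gene described above. ID2, another inhibitor of helix-loop-helix factors and a marker of the distal tip, read 51.4 and 529 against 1659.5 and 1641. Of 13 measured factors on this list 4 were higher (30.8%, against 12.6% of all measured genes), 2 of them held. Another 6 were lower (46.2%, against 13.2%), 5 of them held. NKX2-1, also on the list, read 29.6 and 3.87 in CL1-5 and 31.2 and 60.2 in CL1-0. The controls thus differed little in it, while the second arrays lay apart. FOXJ1, which directs ciliogenesis, was at or below the floor on every array.

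HOX genes, which set position along the body axis, were lower in CL1-5 as a group. Of 21 measured HOX genes, 14 were lower in the CL1-5 control, against 13.2% of all measured genes, and all 14 held. A further 4 were higher, of which 1 held. The median ratio was -1.77 in the controls and -1.81 in the second arrays. HOXC6 read 225 and 522 in CL1-5 and 2329.8 and 1764 in CL1-0, HOXC10 104 and 159.8 against 719 and 606, and HOXB5 27.3 and 35.5 against 254 and 108. HOXA2 and HOXD8 were near the floor in CL1-5, with 4.63 and 4.46 against 97.03 and 89.4 and 9.81 and 6.05 against 68.5 and 57.1. The lower members lay in the HOXA, HOXB, HOXC and HOXD clusters, and those of HOXB formed a run of neighbours that is described below with the other runs.

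The labels describe the cells by reference to type II alveolar cells of the lung, and the defining markers of that cell type were dim in both lines. SFTPC, a surfactant protein, read 33.5 and 29.8 in CL1-5 and 21.3 and 6.72 in CL1-0. SFTPD, NAPSA, SLC34A2, PGC and SLC22A31 were below the level for a measured gene. Of 8 measured markers 2 were higher and 1 lower. LAMP3, a lamellar body protein, read 37.4 and 31.2 against 9.74 and 11.01, and CTSH, a cathepsin, read 14.2 and 9.01 against 122 and 115. In bulk RNA, more cells of a type and more RNA per cell cannot be told apart. Other cell types were checked by the summed signals of their lists, whose part in the results was not tested. In 4 of the lists most of the sum, in the line where it was high, came from 1 gene. Type I alveolar markers summed to 4452 and 4408 in CL1-5 and 1322 and 2136 in CL1-0, mostly from CAV1, and 2 of 4 measured ones were higher and did not hold. Airway markers summed to 538 and 456 in CL1-5 and 2483 and 1642 in CL1-0, mostly from the tubulin TUBA1A, at 488 and 397 against 2438 and 1590.02. Basal and squamous markers summed to 76.2 and 75.2 in CL1-5 and 1651 and 1152 in CL1-0, mostly from SOX2. Neuroendocrine markers summed to 1340.0 and 2682 in CL1-5 and 4407 and 3853 in CL1-0, mostly from UCHL1, a ubiquitin hydrolase, at 1143 and 2519 against 4192 and 3585. Of 5 measured neuroendocrine markers 3 were lower in CL1-5, and the 1 that held was CHGA, the granule protein chromogranin A, at 9.69 and 6.45 against 49.3 and 44.3. Of 3 measured gut and liver markers 1 was higher and 2 were lower, and the lower ones, FGB and CDX2, held. Leukocyte markers summed to 84.5 in the CL1-5 control and 132 in the vector array, with PTPRC below the measured level and CD14 and CD52 at the floor on every array. Of airway markers, SCGB3A1, SCGB3A2, BPIFB1 and TPPP3 were at the floor on every array, as were INSM1 and GRP among neuroendocrine markers and TFF2 among gut markers.

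Of 9 measured endothelial markers 6 were higher in the CL1-5 control and none lower. The list summed to 808 in the CL1-5 control, 245 in the knockdown, 186 in the vector array and 139 in the HA-G9a array. PECAM1, the adhesion molecule CD31, read 318 and 81.5 in CL1-5 and 13.3 and 1.61 in CL1-0, and ESAM, an endothelial cell adhesion molecule, read 91.3 and 38.3 against 1.098 and 1.495. These were the 2 that held. CLDN5, CDH5 and TIE1 had control ratios of 4.62 or beyond, 3.54 and 3.35 or beyond and second-array ratios of -0.40, 0.16 or beyond and -0.70. The defining markers VWF and TEK were below the measured level in the controls, and both went the other way. VWF read 1.97 and 2.30 in CL1-5 and 10.4 and 4.22 in CL1-0. TEK read 1.86 and 2.54 against 6.64 and 15.75.

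Several epithelial genes were dim in both lines. ESRP1, GRHL2, CLDN3, CLDN4 and CLDN7, all common in epithelial cells, were below the measured level. CDH1, which encodes E-cadherin, read 2.36 in the CL1-5 control and 14.9 with the vector but 77.6 in the knockdown, and its other probe set was below the measured level. EPCAM, an epithelial adhesion molecule, read 6.06 in the CL1-5 control and 24.6 with the vector, a ratio of -2.01 that was 0.04 in the second arrays. VIM, the mesenchymal filament vimentin, read 5149 and 5219 in CL1-5 and 4921 and 5059.7 in CL1-0. Vimentin was thus bright in both lines and E-cadherin was dim in both controls. Of 13 measured cadherin and tight junction genes 4 were lower in CL1-5, of which 1 held, and 1 was higher and did not hold. The 1 that held was TJP3, a zonula occludens scaffold, at 6.49 and 13.7 against 27.2 and 22.2. Of 11 epithelial regulators 6 were lower, 3 of them held. AP1M2, an adaptor for sorting to the basolateral membrane, read 58.7 and 146 in CL1-5 and 501 and 564 in CL1-0, and SPINT2, an inhibitor of membrane serine proteases, read 15.4 and 9.47 against 76.9 and 76.00. The 1 higher member was KLF4, a factor of differentiating epithelia, at 1111 and 1278 against 47.2 and 155.

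Desmosomes, which anchor keratin filaments at cell contacts, differed in both directions and every called difference held. Of 9 measured components 4 were higher in CL1-5 (44.4%, against 12.6% of all measured genes) and 2 lower (22.2%, against 13.2%). All 6 held, whereas 47.1% of all higher and 51.6% of all lower genes did. The list median was -0.38 in the controls and 0.74 in the second arrays. DSP, desmoplakin, read 1089 and 1599.8 in CL1-5 and 174 and 69.9 in CL1-0. DSG2, a desmosomal cadherin, read 258 and 372 against 38.3 and 54.2, PKP3, plakophilin 3, 67.5 and 155 against 16.6 and 18.6, and PERP, a desmosomal membrane protein, 1286 and 1901 against 255 and 476. JUP, plakoglobin, was the reverse, at 19.4 and 29.3 in CL1-5 and 184 and 130.3 in CL1-0, and so was DSC2, at 35.5 and 11.1 against 144 and 96.8. Keratins showed 3 higher of 7 measured, none of which held. KRT18 read 2945 in the CL1-5 control and 545 with the vector, yet 2113 with HA-G9a, so the CL1-0 arrays themselves were far apart.

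Transcription factors of the epithelial-mesenchymal transition differed in both directions, more of them higher in CL1-5. Of 11 measured, 7 were higher in CL1-5 (63.6%, against 12.6% of all measured genes), 4 of them held. The 2 lower ones (18.2%, against 13.2%) both held. Over all measured genes 47.1% of the higher and 51.6% of the lower ones held. PRRX1, GSC and KLF8 were below the measured level, so the shares describe measured members alone. SNAI2, which encodes SLUG, a repressor of E-cadherin, read 682 and 274 in CL1-5 and 6.93 and 35.7 in CL1-0. ETS1 read 916 and 562 against 15.2 and 123, and FOXC2 98.7 and 37.1 against 8.84 and 7.696. FOSL1, described above, was the other held one. TWIST1, a helix-loop-helix factor of the same programme, read 3.56 and 13.99 in CL1-5 and 329 and 287 in CL1-0. The signals of the lines did not overlap for any of these 5, which were all picked from the held members. CDH2, N-cadherin, was dim, at 44.7 and 17.00 against 6.98 and 21.3, and its second-array ratio of -0.81 was opposite in sign. MYL9, a regulatory myosin light chain, read 5.97 and 0.467 in CL1-5 and 583 and 678 in CL1-0.

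**Figure D3:**
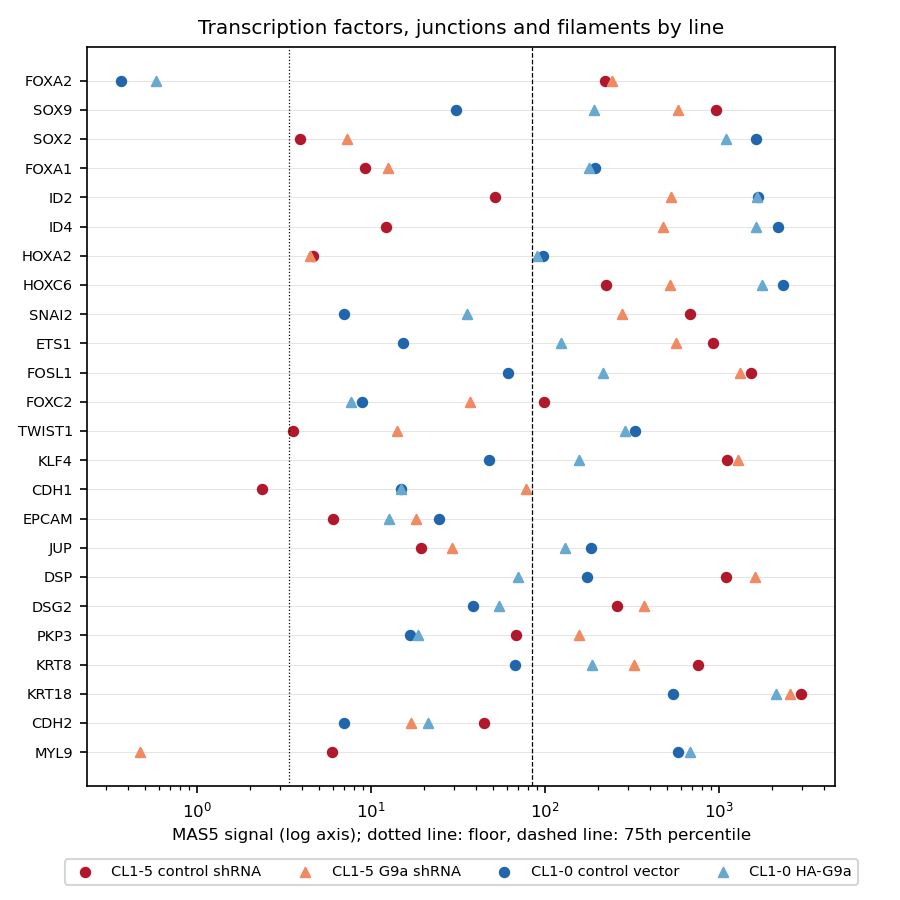
MAS5 signal (log axis) of 24 lineage factors, transition factors, junction genes and filament genes on the 4 arrays; red and orange are CL1-5, blue CL1-0, circles the controls and triangles the second arrays. FOXA2, SOX9, SNAI2 and DSP lie to the right in CL1-5 and SOX2, FOXA1, TWIST1 and MYL9 in CL1-0, while for CDH1, KRT18 and CDH2 the arrays of the lines interleave or lie close.

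The list of genes that earlier work on these lines had linked to invasion gave 3 higher and 3 lower of 7 measured members. These genes were chosen in studies of the same lines, so their direction is no independent evidence. CXCL8, SNAI2 and AXL were the 3 higher ones and held. CRMP1, a collapsin response mediator described as an invasion suppressor in these cells, read 16.1 and 2.76 in CL1-5 and 433 and 351 in CL1-0. DNAJB4, a heat shock cochaperone also described as a suppressor, read 137 and 271 against 721 and 725. Both held, whereas CDH1, the third lower member, did not.

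The plasminogen and serpin list had more held differences than the lists of metalloproteinases or of ADAM proteases. Of 17 measured members 10 were higher in CL1-5, 9 of them held, and 4 were lower, 2 of them held. The median ratio was 2.37 in the controls and 1.48 in the second arrays. Beside PLAU and THBD, F3, the tissue factor that starts coagulation, read 1272 and 672 in CL1-5 and 15.05 and 29.6 in CL1-0. SERPINB9, an intracellular inhibitor of granzyme B, read 469 and 244 against 5.63 and 0.238. The lower members that held were F2RL2 and TFPI2, a Kunitz-type inhibitor of plasmin, which read 1.15 and 1.098 in CL1-5 and 71.4 and 239.7 in CL1-0. PLAT, the other plasminogen activator, and PLG itself were below the measured level.

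Few differences in matrix metalloproteinases held. Of 11 measured metalloproteinases and inhibitors 4 were higher, 1 of them held, and 1 was lower and did not hold. MMP14, the membrane-bound MT1-MMP, was the held one, at 423 and 102 in CL1-5 and 23.3 and 22.7 in CL1-0. MMP1, the interstitial collagenase, read 424 in the CL1-5 control and 3.98 with the vector, but 16.8 in the knockdown and 27.3 with HA-G9a. TIMP3, a matrix-bound inhibitor of these enzymes, read 1976 and 63.5 in the controls and 47.8 and 93.6 in the second arrays. For both genes 1 array, the CL1-5 control, stood above the other 3. MMP2, MMP3, MMP7 and MMP10 were below the measured level. Of 12 ADAM and ADAMTS proteases 3 were higher, none held, and 3 lower, 2 of them held, among them ADAMTS12 at 1.74 and 6.65 against 31.8 and 42.2.

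Collagens were divided between the lines. Of 16 measured, 10 were higher in CL1-5, 6 of them held, and 5 were lower, 3 of them held. COL6A3, a chain of the microfibrillar type VI, read 91.4 and 125 in CL1-5 and 0.748 and 0.993 in CL1-0. COL13A1, a transmembrane collagen, read 260.4 and 92.9 against 4.65 and 29.4, and COL27A1 261 and 178 against 10.7 and 23.7. The fibrillar collagens COL5A2 and COL3A1 belonged to CL1-0, with COL3A1 at 3.75 and 4.67 in CL1-5 and 329.8 and 59.7 in CL1-0. COL3A1 rests on probe sets whose names mark them as shared between transcripts, since its other probe sets were below the measured level. Matricellular proteins were split too, with 7 higher and 6 lower of 18, of which 3 and 5 held. TNC, tenascin C, read 165 and 24.02 in CL1-5 and 0.372 and 0.752 in CL1-0. CCN2, connective tissue growth factor, read 187 and 123 against 3455 and 3107, and POSTN, periostin, 3.42 and 1.86 against 151 and 41.03. SPARC was high in the CL1-5 control alone, at 283 against 4.73, 11.9 and 17.02 in the knockdown, vector and HA-G9a arrays. Of 5 measured fibroblast markers 4 were lower in CL1-5, of which COL3A1 and POSTN held, and COL1A2, LUM, PDGFRA, PDGFRB, FAP and THY1 were below the measured level.

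Integrin and laminin genes differed in both directions. ITGA6, a laminin receptor subunit, read 1704 and 1793 in CL1-5 and 77.1 and 94.8 in CL1-0, and ITGA3, another, 231 and 271 against 21.6 and 57.2. LAMB3, a chain of the epithelial laminin 332, read 1264 and 1723 against 25.1 and 188. ITGA2, a collagen receptor subunit, read 416 and 190.3 against 5.66 and 43.9. Of 14 integrin genes 6 were higher, 3 of them held, and 3 lower, 1 of them held. ITGB3, the beta 3 subunit, read 367 in the CL1-5 control and at most 17.5 on the other arrays. Of 9 laminin and nidogen genes 2 were higher, 1 held, and 3 lower, 1 held, the latter being NID1 at 265 and 68.4 against 1427 and 1312. ITGA7, a laminin receptor subunit, was lower in the controls and did not hold, at 1.302 and 11.8 against 20.4 and 15.8.

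Hyaluronan and proteoglycan genes included large differences both ways, 7 higher and 4 lower of 14, of which 3 and 4 held. CD44, the hyaluronan receptor, read 1581 and 653 in CL1-5 and 32.3 and 331 in CL1-0, and its second-array ratio was 0.50 against 5.63 in the controls. HAS3, a hyaluronan synthase, read 640.3 and 749 against 32.8 and 124. The glypicans GPC6 and GPC3 marked CL1-0, with 5.62 and 0.473 against 453 and 243 and 8.99 and 24.4 against 135 and 107. SULF2, a heparan sulfate sulfatase, read 604 in the CL1-5 control but 0.833 in the knockdown, against 10.6 and 10.9 in CL1-0.

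Wnt, Notch, TGF-beta and guidance genes differed in both directions. In the Wnt list 7 of 18 were higher, 4 of them held, and 5 lower, 4 of them held. WNT5A, a non-canonical ligand, read 5.43 and 15.1 in CL1-5 and 505 and 817 in CL1-0. FZD6, a Frizzled receptor, was the reverse, at 455 and 1280.2 against 12.03 and 14.3. In the Notch list 5 of 14 were higher, 2 of them held, and 3 lower, 2 of them held. The ligand JAG1 was bright in CL1-5, at 4100.2 and 5522 against 56.1 and 209, and the receptor NOTCH3 was a CL1-0 gene, at 3.41 and 4.41 against 92.1 and 62.2. In the TGF-beta and BMP list, 7 of 24 were higher and 7 lower, of which 3 and 6 held. TGFBR2, the type II TGF-beta receptor, read 456 and 934 in CL1-5 and 34.2 and 84.9 in CL1-0. Guidance genes included SLIT2, a Robo ligand, at 1.35 and 6.82 in CL1-5 against 139 and 133 in CL1-0, and SEMA3E, a secreted semaphorin, at 3.63 and 2.83 against 93.6 and 45.2. Of the 20 genes of that list 7 were lower, 5 of them held, and 4 higher, 3 of them held.

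Measured cytokine genes were more often higher than lower in the CL1-5 control. Of 18 measured 10 were higher (55.6%, against 12.6% of all measured genes), 7 of them held. Another 2 were lower, 1 of them held. A further 10 members of the list were below the measured level in both controls. A gene low in CL1-0 counted as measured only through CL1-5, so the share describes measured members alone. IL6 read 233 and 130.2 in CL1-5 and 2.06 and 5.64 in CL1-0, and CXCL1, a chemokine that like CXCL8 attracts neutrophils, 151 and 80.8 against 7.12 and 9.85. Both genes were low in both CL1-0 populations. PTX3, a soluble pattern recognition protein, and CCL5, a T cell chemokine, were high only in the CL1-5 control, PTX3 at 206 against 7.37 in the knockdown and CCL5 at 60.8 against 1.04. In CL1-0, PTX3 read 1.16 and 18.98 and CCL5 1.02 and 7.48.

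Interferon-stimulated genes were high on 1 array, the CL1-5 control. Of 34 measured, 26 were higher in the CL1-5 control, with a median ratio of 2.65, but 5 of the 26 held, and the median of the second arrays was -0.09. IFIT3, an antiviral protein, read 529 in the CL1-5 control, 26.5 in the knockdown and 8.84 and 21.7 in CL1-0. MX1, a dynamin-like antiviral GTPase, read 118, 6.09 and 0.948 and 6.34 in the same order, and OAS1, which makes the messenger that turns on RNase L, 82.5, 6.53 and 2.52 and 6.37. In each the CL1-5 control stood alone, and the knockdown array lay within or close to the range of the CL1-0 arrays. Antigen presentation had a gene that did hold. PSMB8, a subunit of the immunoproteasome, read 140.5 and 156 in CL1-5 and 1.89 and 1.73 in CL1-0. Of 17 genes of the MHC list 6 were higher, 2 of them held, and 2 lower, both held.

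**Figure D4:**
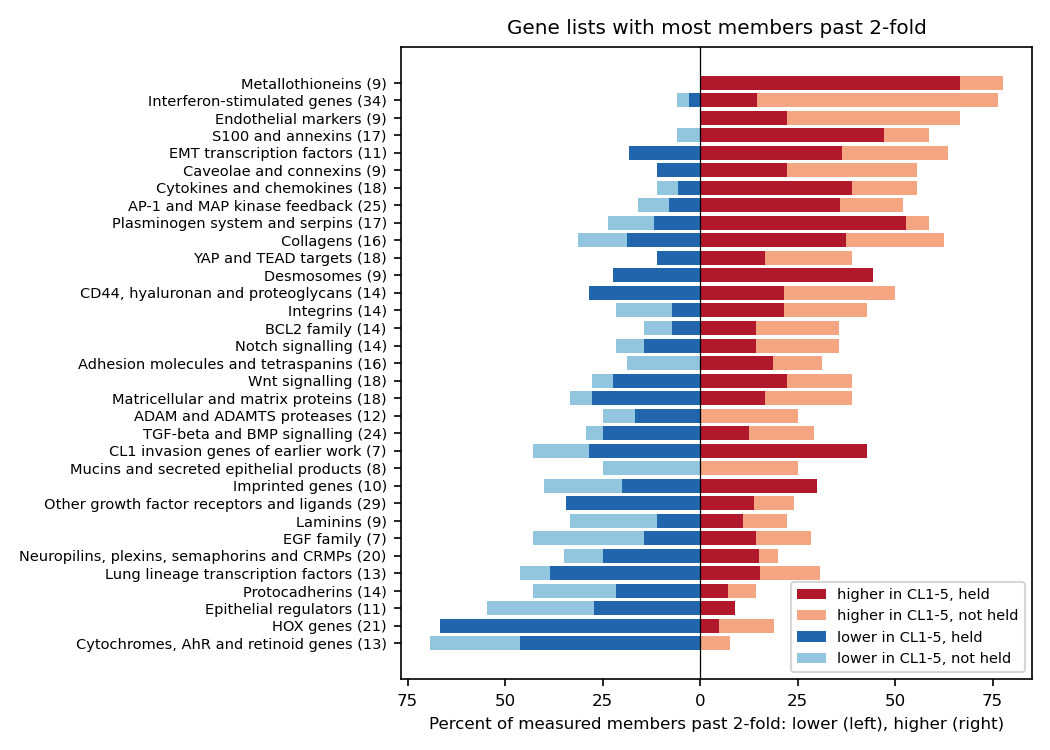
Percent of the measured members (number in brackets) that were at least 2-fold lower (left) or higher (right) in the CL1-5 control, for lists with at least 7 measured members and most of them past 2-fold. Dark bars are differences that held in the second arrays and pale bars those that did not; the interferon-stimulated genes have the longest pale bar, and the dark bars of the HOX genes and of the metallothionein list make up all or most of their length on 1 side. Over all measured genes 12.6% were higher and 13.2% lower.

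More genes of calcium-binding S100 proteins and of metallothioneins were higher in CL1-5 than lower. Of 17 S100 and annexin genes 10 were higher, 8 of them held, and 1 was lower. S100A6 read 5333 and 5243 in CL1-5 and 178 and 385 in CL1-0, S100A11 2609 and 3229 against 87.4 and 247, and S100A16 1649 and 575 against 57.4 and 33.5. The 1 lower member was ANXA1, annexin A1, at 146 in the CL1-5 control but 2212 in the knockdown and 2866 and 2696 in CL1-0, so it did not hold. The metallothionein list had 9 measured members, of which 7 were higher, and the 6 that held were metallothioneins, small cysteine-rich proteins that bind zinc and copper. The other higher member was SLC30A1, a zinc exporter, at 262 and 72.3 against 106 and 419, and MTF1, the factor that switches metallothionein genes on, was within 2-fold. MT2A read 1974 and 4299 against 359 and 509, MT1X 1166 and 3312 against 179.9 and 303, and MT1H 660.03 and 2136 against 58.6 and 93.5. Their sequences are alike and probe sets can cross-hybridise, so single metallothionein values are uncertain. Caveolae, the small pits of the plasma membrane, are built by caveolins and cavins, and 5 of 9 caveolar and connexin genes were higher, 2 of them held. CAV1 stood at 4078 and 4143 against 836 and 1819.97 and did not hold, while CAVIN3 held at 141 and 135 against 3.87 and 1.43.

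Genes that make, sense or clear retinoids and foreign compounds were more often lower than higher in the CL1-5 control. Of 13 cytochrome, aryl hydrocarbon receptor and retinoid genes 9 were lower in CL1-5, 6 of them held, and 1 was higher. The median ratio of this list was -1.91 in the controls and -1.20 in the second arrays over the same 13 members. Over the members measured in those arrays instead, it was 0.17 with the knockdown for the CL1-5 control and 0.23 with both second arrays. CYP1B1, a cytochrome that the aryl hydrocarbon receptor switches on, read 22.6 in the CL1-5 control and 1185 in the knockdown, against 113 and 64.6 in CL1-0. AHR, that receptor, read 11.6 and 150.4 against 36.98 and 31.7, so in both genes the knockdown array was the highest and the CL1-5 control the lowest. RARB, a retinoic acid receptor often silenced in carcinoma, read 7.31 and 9.33 in CL1-5 and 228 and 203 in CL1-0. CYP26B1, which degrades retinoic acid, read 43.9 and 72.8 against 369 and 119, and AHRR, a repressor of the aryl hydrocarbon receptor, 6.29 and 27.01 against 100.05 and 45.7. MGST1, a membrane-bound glutathione transferase, read 506 and 1468 against 25.8 and 84.6. PRDX2, a peroxiredoxin, read 0.305 and 1.73 against 607 and 397 by its brightest probe set, but of its 3 other probe sets 1 went the opposite way. Single genes of glucose use went opposite ways. SLC2A3, the glucose transporter GLUT3, read 44.02 and 46.6 in CL1-5 and 2105 and 2361 in CL1-0, whereas ENO2, a neuronal enolase, read 156 and 165 against 0.559 and 6.71. The list of hypoxia targets and glycolytic enzymes had 27 measured members. Of these 7 were higher in CL1-5 (25.9%, against 12.6% of all measured genes), 3 of them held. Another 3 were lower, all held, a share of 11.1% that was below the 13.2% of all measured genes. NDRG1 read 926 and 1348 against 31.03 and 99.7, and ADM, adrenomedullin, 48.01 and 116 against 877 and 511. In the list of ATF4 targets and serine synthesis genes none of 23 was higher and 8 were lower, 6 of them held, among them CBS, which makes cystathionine, at 168 and 103 against 720.2 and 536.

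The aldo-keto reductases AKR1C1, AKR1C2 and AKR1C3, which reduce steroids and other carbonyls, differed between the controls in a way that the second arrays reversed. They read 21.1, 8.204 and 8.52 in the CL1-5 control and 224, 114 and 47.6 with the vector, but 2114, 2271 and 2015 in the knockdown. The knockdown array was the highest of the 4 for all 3 genes. Their probe sets can cross-hybridise, so they are not separate measurements. AGR2, a disulfide isomerase of mucus-secreting cells, showed the same order, at 10.5 in the CL1-5 control, 105 with the vector and 2152 in the knockdown.

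Few genes that every growing cell uses passed 2-fold. None of 21 proteasome and ribosomal protein genes passed 2-fold in either direction, and their median ratio was -0.16. Of 32 cell cycle genes 3 were higher (9.38%) and 1 lower (3.12%), against 12.6% and 13.2% of all measured genes. The higher share was thus close to that of all genes. The 2 higher ones that held were cyclins, CCND1 at 618 and 935 in CL1-5 against 23.6 and 44.4 in CL1-0 and CCNE2 at 494 and 547 against 149.8 and 151. CCND3 was the lower one, at 935 and 1192 against 1975 and 1911, but with the mean of all its probe sets the ratio was 0.42. Of 29 genes of H3K9 and DNA methylation, the machinery to which G9a belongs, none was higher and 2 were lower, of which 1, DNMT3B, held, at 132 and 132 against 377 and 373. EHMT1, the partner of G9a, had a ratio of 0.30. Of 23 Polycomb and SWI/SNF genes 3 were higher and 2 lower, and all 5 held; these shares, 13% and 8.70%, were close to or below the 12.6% and 13.2% of all measured genes. SMARCA2, the ATPase BRM, read 119 and 89.3 in CL1-5 and 0.8501 and 13.8 in CL1-0, although 1 of its probe sets, not marked as shared, had a ratio of -0.89. CBX2, a Polycomb reader, read 64.4 and 62.1 against 297 and 298.

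Imprinted and germline genes added smaller groups. PHLDA2, an imprinted growth regulator of placenta, read 914 and 1581 in CL1-5 and 88.2 and 375 in CL1-0, and PEG3, an imprinted zinc finger gene, was the reverse, at 46.8 and 112 against 486 and 559. Of 10 measured imprinted genes 3 were higher, all held, and 4 lower, 2 of them held. Of 11 cancer-testis genes 1 was higher and held, MAGEA11 at 219.9 and 355 against 25.9 and 37.4, and 2 were lower and did not. These shares, 9.09% and 18.2%, were near the 12.6% and 13.2% of all measured genes. MAGEA4 was bright in both lines, at 721 and 1281 against 1570.2 and 1592.

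The position of the genes added another view of the lines, because neighbours often differed together. Names and gene order came from RefSeq. On chromosome 8, 119 of 464 measured genes were higher in CL1-5 (25.6%, against 12.6% of all measured genes), 73 of them held, and the median ratio was 0.42 in the controls and 0.34 in the second arrays. On chromosome X, 100 of 417 were lower (24.0%, against 13.2%), 61 of them held, with medians of -0.40 and -0.35. Chromosome 4 had 115 of 463 lower (24.8%), but 49 held, and its median of -0.34 in the controls was 0.11 in the second arrays. On the other chromosomes the median lay between -0.20 and 0.26 in the controls.

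Medians of 25 successive bright genes placed these shifts. On chromosome 8 the shift towards CL1-5 filled the latter part of the gene order. It was largest from DECR1 to MTDH, where the median ratio was 1.34 in the controls and 1.30 in the second arrays and 16 of 25 genes were higher and none lower. On chromosome X the shift towards CL1-0 was largest from TAF9B to PRPS1, at -1.13 and -1.41, with 13 of 25 lower and none higher. On chromosome 4 the genes from PGM2 to SLAIN2 had medians of -1.44 in the controls and -0.54 in the second arrays. The second arrays thus showed the shifts of chromosomes 8 and X at like size, and that of chromosome 4 at a smaller size. DNA copy number was not measured, and its part in these shifts was not tested.

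**Figure D5:**
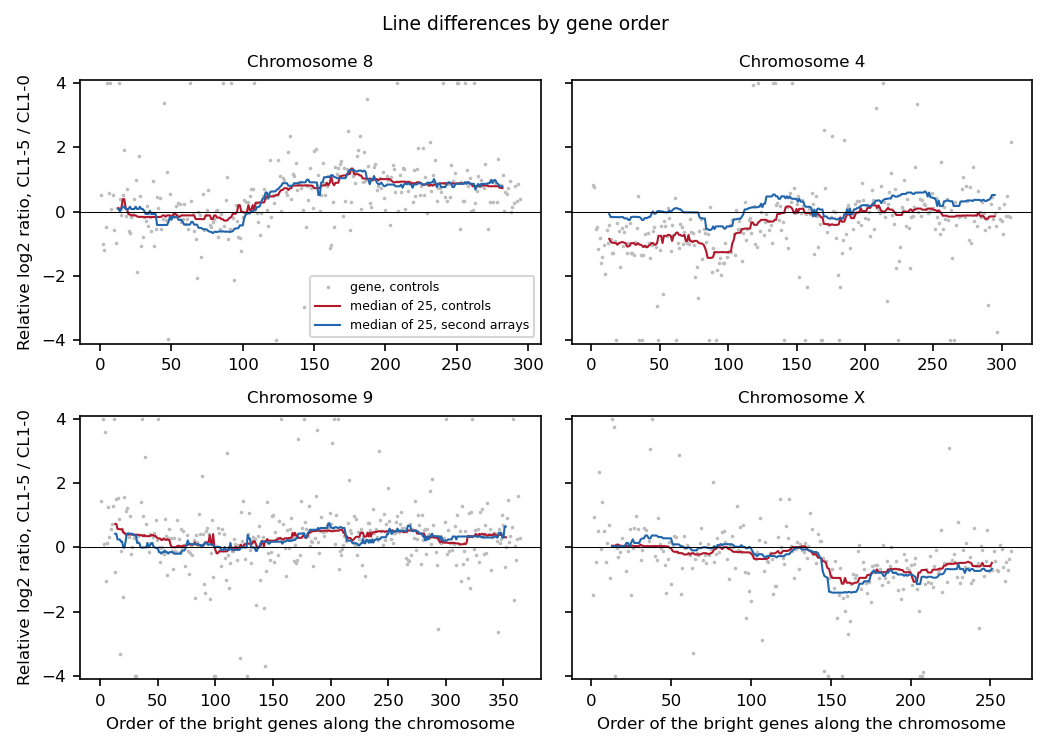
Relative log2 ratio of CL1-5 over CL1-0 for bright genes in their order along chromosomes 8, 4, 9 and X; grey points are genes in the control arrays (drawn at 4 or -4 where beyond), the red line is the median of 25 successive genes in the controls and the blue line the same in the second arrays. Both lines rise above 0 on chromosome 8 and drop below it on chromosome X, and on the first part of chromosome 4 the red line lies below the blue one.

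Runs of directly neighbouring measured genes that were all past 2-fold in the same direction were counted next. There were 74 runs of 3 or more genes higher in CL1-5, holding 257 genes, and 74 runs lower, holding 275 genes. The longest higher runs had 6 genes. A run on chromosome 16 held the metallothioneins from MT2A to MT1X, all 6 held, and another on chromosome 1 the S100 genes S100A6, S100A4, S100A3, S100A2, S100A16 and S100A13, all 6 held with medians of 3.16 and 3.27. The run from COL13A1 to SAR1A on chromosome 10 had 5 genes, of which 2 held. The longest lower run had 14 genes, from UCHL1 to SLAIN2 on chromosome 4, of which 5 held. The run from STK26 to PHF6 on chromosome X had 8 genes, of which 7 held, among them GPC3. That from ITGAV to COL5A2 on chromosome 2 had 7, of which 5 held, and held both COL3A1 and COL5A2. The HOXB run on chromosome 17, from HOXB3 to HOXB6, had 6 and all held. Another run of 7 lower genes lay on chromosome 18, of which 4 held, and another of 6 on chromosome 10, of which 5 held.

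A run on chromosome 9 held the tumour suppressors CDKN2A and CDKN2B. CDKN2A encodes p16 and ARF, which restrain the cell cycle through RB and p53, and CDKN2B encodes p15. The run comprised KLHL9, MTAP, CDKN2A, CDKN2B and ELAVL2, all 5 of which held, with median ratios of -4.02 and -4.82. CDKN2A read 20.2 and 16.7 in CL1-5 and 332 and 425 in CL1-0, and MTAP, which salvages methionine, 0.729 and 0.447 against 69.3 and 67.8. CDKN2B read 3.31 and 5.54 against 16.7 and 31.7, ELAVL2, a neuronal RNA-binding protein, 6.08 and 8.44 against 29.3 and 59.2, and KLHL9, a ubiquitin ligase adaptor, 5.85 and 1.18 against 199 and 209. MTAP was at or below the floor in both CL1-5 arrays and CDKN2B at or near it. The values of CDKN2A come from a probe set whose name marks possible cross-hybridisation, and its other measured probe set read 0.710 and 5.13 in CL1-5 and 102 and 90.1 in CL1-0, at or near the floor in CL1-5 as well. This run was looked at in detail after its values had been seen.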

How the data were processed

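Total RNA of 4 stably transduced populations was hybridised as biotin-labelled cRNA to Affymetrix arrays, 1 array per group, per the labels' protocols. The deposited table holds linear signal intensities of 54675 probe sets, made by the authors with MAS5, per the submitters' processing notes; its scaling target is unknown here, as are detection calls. Of the probe sets, 41097 had 1 gene symbol, 1801 several and 11777 were not listed. Symbols of 41043 were updated against RefSeq (GRCh38.p14), and 59 that report Y-linked genes or an X-inactivation transcript were not used. Where several probe sets named only that gene, it took the brightest by mean over the arrays. Signals were floored at the 25th percentile of all values (3.35), log2-transformed and centred on the median measured gene. A call needed 2-fold and had no test, because each group had 1 array; the number of arrays limits the precision. For the 18 spiked hybridization controls the log2 ratio of the control arrays had a median of -0.05 with an SD of 0.13.

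Named genes were the 15 largest held and 6 largest unheld bright differences per direction, up to 5 members per list, up to 5 runs of neighbours per direction, and EHMT2, EHMT1 and EPCAM; 1 of them is not reported here. Other names were chosen after their values were seen: the ends of the 25-gene windows, FGFR3, DSC2, GPC3, CBX2, MAGEA4, CCND3, TFPI2, SLC30A1, MTF1, CYP1B1, AHR, ITGA7, KLHL9, ELAVL2, SFTPC, NKX2-1, VIM and the genes listed as below the measured level. The comparison, its members and the 64 gene lists were chosen with earlier results of these data known. RefSeq promoters were matched by symbol, for 10459 measured genes. The calling step was tested on simulated data. Python 3.11.15, pandas 2.3.3, NumPy 2.4.6 and matplotlib 3.10.9 were used. Alternatives covered centring, scaling, floor, filter, probe set rule, fold threshold and the arrays of each line.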

Additional observations from a re-analysis of the deposited data

Results flagged for a closer look

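In 14 named genes the line difference ran past 2-fold one way in the controls and past 2-fold the other way in the second arrays. Each pair is 1 array against 1, so the difference between the pairs was not tested, and the cause was not tested. Higher in the CL1-5 control but lower in the second arrays were MMP1 (a relative log2 ratio of 6.75 in the controls and -1.19 in the second arrays), PTX3 (5.95 or beyond and -1.85), SULF2 (5.84 and -2.19 or beyond), TIMP3 (4.97 and -1.46), SPARC (4.59 and -2.33), CCL5 (4.19 or beyond and -1.64 or beyond) and SLC30A1 (1.32 and -3.02). Lower in the CL1-5 control but higher in the second arrays were AKR1C2 (-3.79 and 3.47), AKR1C1 (-3.39 and 2.72), AGR2 (-3.31 and 3.07), AKR1C3 (-2.47 and 5.61), CYP1B1 (-2.31 and 3.71), CDH1 (-2.13 or beyond and 1.90) and AHR (-1.65 and 1.76).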

How the results depend on the processing

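With 1 array per group and no detection calls, no value has an error between replicates, and dim signals limit the small ratios most. No paired analysis was possible because each group has 1 array and no result comes from a test. Under the other scalings, centring, floors, no filter and other probe set rules, and with the other arrays of each line, the genes at least 2-fold higher numbered 1303 to 2171 (1630 as reported) and those lower 1252 to 2284 (1704). Held differences numbered 1288 to 1867 (1647), under the settings that keep the control pair. With only bright genes, centred on their own median, 851 were higher, 786 lower and 889 held (54.3%). At 4-fold 678 were higher, 673 lower and 578 held (42.8%), where holding also asked for 4-fold in the second arrays. The drops in number at both settings follow from testing fewer genes or asking for more. With the second arrays kept at 2-fold, the size classes past 4-fold held in 50.7% to 77.6% of higher and 60.4% to 95.0% of lower genes.

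For 196 named genes and 64 lists, 4 genes and 1 list turned sign under a change of processing. With the mean of all probe sets CCND3 stood at 0.42. With only probe sets not marked as shared, COL3A1 stood at 0.02, POSTN at 0.20, SMARCA2 at -0.89 and the median of the fibroblast markers at 0.43. By these probe sets COL3A1 was below the floor in both controls, so 0.02 is only the centring value and shows no direction. POSTN read 3.80 in the CL1-5 control and 1.92 with the vector, just above and below the floor of 3.35. Far more turned when other arrays stood for a line, 27 genes in all. Where 1 of the 2 signals was at or below the floor, these ratios are bounds. Where both were, the ratio is only the centring value and shows no direction. Among the 27 genes that was so for CCL5 at -0.42 with the knockdown array and for ARHGDIB at -0.49 with both second arrays. With the knockdown array in place of the CL1-5 control, the ratios were NRG1 2.16, HBEGF -0.96, CDH5 -0.46, TIE1 -0.25, CDH1 1.96, TIMP3 -0.83, SPARC -1.75, SULF2 -2.09, CCL5 -0.42, AKR1C1 2.82, AKR1C2 3.89, AKR1C3 4.98, AGR2 3.94, SLC30A1 -0.97, CYP1B1 2.97, AHR 1.60 and ARHGDIB -0.93. SLC30A1 also turned with the HA-G9a array in place of the CL1-0 control, at -0.75. With the knockdown array for the CL1-5 control, the cytochrome and retinoid list had a median of 0.17. That of the gut and liver markers was 0.56, both over the members measured in those arrays. With both second arrays the ratios were ERBB3 0.15, NRG1 0.33, HBEGF -0.41, CLDN5 -0.40, TIE1 -0.70, CDH1 1.90, EPCAM 0.04, KRT18 -0.22, CDH2 -0.81, MMP1 -1.19, TIMP3 -1.46, SPARC -2.33, SULF2 -2.19, PTX3 -1.85, CCL5 -1.64, IFIT3 -0.20, MX1 -0.54, OAS1 -0.45, AKR1C1 2.72, AKR1C2 3.47, AKR1C3 5.61, AGR2 3.07, SLC30A1 -3.02, CYP1B1 3.71, AHR 1.76 and ARHGDIB -0.49. The list medians that turned were -0.03 for interferon-stimulated genes and 0.23 for the cytochrome and retinoid list. So did 0.45 for gut and liver markers and -0.52 for endothelial markers. These are over the members measured in the second arrays. Over the members measured in the controls, the second-array medians were -0.09, -1.20, -2.53 and -0.40 in the same order. The cytochrome list and the gut and liver markers thus turned only through a change of members. The cause was not tested.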

Other observations

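Probe sets that the annotation table does not list, and that are therefore unnamed here, also separated the lines. Of 11721 such probe sets apart from the manufacturer's controls, 3377 were measured, and 431 of these were at least 2-fold higher in the CL1-5 control and 554 lower, 29.2% in all. In the second arrays 143 of the higher and 217 of the lower ones held. At 32-fold 8 were higher and 4 lower.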
